A study of Homo sapiens and Mus musculus with 16 samples.

Results

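This is a comparison of CT26 cells with disrupted PD-L1 and wild type CT26 cells. It was measured in total RNA from 4 libraries of knockout cells and 4 libraries of wild type cells. CT26 is a mouse colon carcinoma line. Both groups were CT26 cells, and the labels set them apart by PD-L1, which was knocked out by CRISPR delivered with a lentivirus. The sample titles do not say if the wild type cells received a control vector. Effects of the delivery, or of other differences between the cells, cannot be told apart from those of PD-L1 loss. The genes were chosen by one rule for all. It asked for a level of at least 1 FPKM in at least 4 of the 8 libraries, and a status in the deposited table other than HIDATA. FPKM is a fragment count scaled by transcript length and by the mapped fragments of the library. The HIDATA status was held by 210 genes, all listed at 0 in every library. Of 53796 genes in the table, 11342 met the rule. The labels do not say if the knockout cells are 1 clone or a pool, or if replicate libraries stem from independent cultures. All p-values therefore rest on how far these libraries scatter, which can be technical scatter alone.

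PD-L1, the product of Cd274, is a cell-surface protein that binds the receptor PD-1 on T cells and restrains them. Tumour cells raise it when interferon gamma acts on them, through the same route by which interferons raise antigen presentation and antiviral genes. Growth factor signalling through ERK, and hypoxia, are also known to act on Cd274 transcription, and several enzymes and chaperones set the stability of the protein at the membrane.

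The defining markers of a colon epithelium were mostly absent from these cells in both groups. Of 12 epithelial markers, Epcam and Muc2 were listed at 0 in every library, and 8 stood below 0.5 FPKM in both group means, among them Cdh1 and Krt8. Krt18, an epithelial keratin, had 33.1, 34.1, 33.0 and 34.6 FPKM in the wild type and 30.6, 30.6, 30.4 and 34.8 FPKM in the knockout, and these ranges overlap through knockout replicate 4, without which the log2 fold change was -0.14 (limma adjusted p = 0.0128). Cdx2, the intestinal transcription factor, had a mean of 0.0415 FPKM in the wild type and 0.930 FPKM in the knockout, a level below the rule for testing. The markers of other cell types were low. The summed level of 13 leukocyte markers was 4.72 to 6.41 FPKM in the wild type and 3.14 to 4.69 FPKM in the knockout, nearly all of it the macrophage marker Cd68 (log2 fold change -0.48, limma adjusted p = 0.0161), with Ptprc and Cd3e at or near 0. The 8 endothelial markers summed to at most 1.456 FPKM in any library. The 8 erythroid markers summed to 0.217 to 0.542 FPKM in the wild type and 1.26 to 1.65 FPKM in the knockout. That difference lay mainly in Epor, with means of 0.0677 FPKM in the wild type and 0.833 FPKM in the knockout. Fibroblast markers were present through the collagens: Col1a2 had a mean of 244 FPKM in the wild type and 296 FPKM in the knockout, while Lum and Thy1 were listed at 0 in every library.

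The depth of the libraries, read from the steps between low FPKM values and expressed relative to the first wild type replicate, ranged from 0.801 to 1.14 for wild type libraries and from 0.927 to 2.497 for knockout libraries, the highest being knockout replicate 1. Of the variance over the genes tested, 45.3% lay on a first principal component that separated the groups, and 12.3% on a second that set wild type replicate 4 apart from the other wild type libraries. Correlations of log2(FPKM + 1) across genes were 0.970 to 0.977 between wild type libraries, 0.971 to 0.981 between knockout libraries and 0.945 to 0.957 between the groups. Genes are not independent replicates, so these give no p. In bulk RNA, fewer cells of a kind and less RNA per cell cannot be told apart.

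Values were compared as log2(FPKM + 1) in limma, two-sided, with Benjamini-Hochberg adjustment over the 11342 genes and a threshold of 0.05. A fold change on this scale understates the change of low genes. In all, 6328 genes (55.8%) passed the threshold. Of all genes tested, 2534 (22.3%) were higher and 3794 (33.5%) lower in the knockout, and the groups of 5836 genes (51.5%) did not overlap. The changes were mostly small: the median absolute log2 fold change was 0.24, and 8959 genes (79.0%) stayed below 0.5. At least 2-fold differences were found for 220 genes that rose (1.94%) and 217 that fell (1.91%). For 2163 genes (19.1%) the 95% interval of the log2 fold change lay within 0.25 of 0. The balance of rises and falls depended on the scaling: 2534 of 6328 changed genes were higher on the deposited scale, 3316 of 6156 (53.9%) with upper-quartile scaling and 2888 of 6159 (46.9%) with quantile normalization. The median log2 fold change of all genes moved from -0.06 to 0.03 and -0.02.

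**Figure D1:**
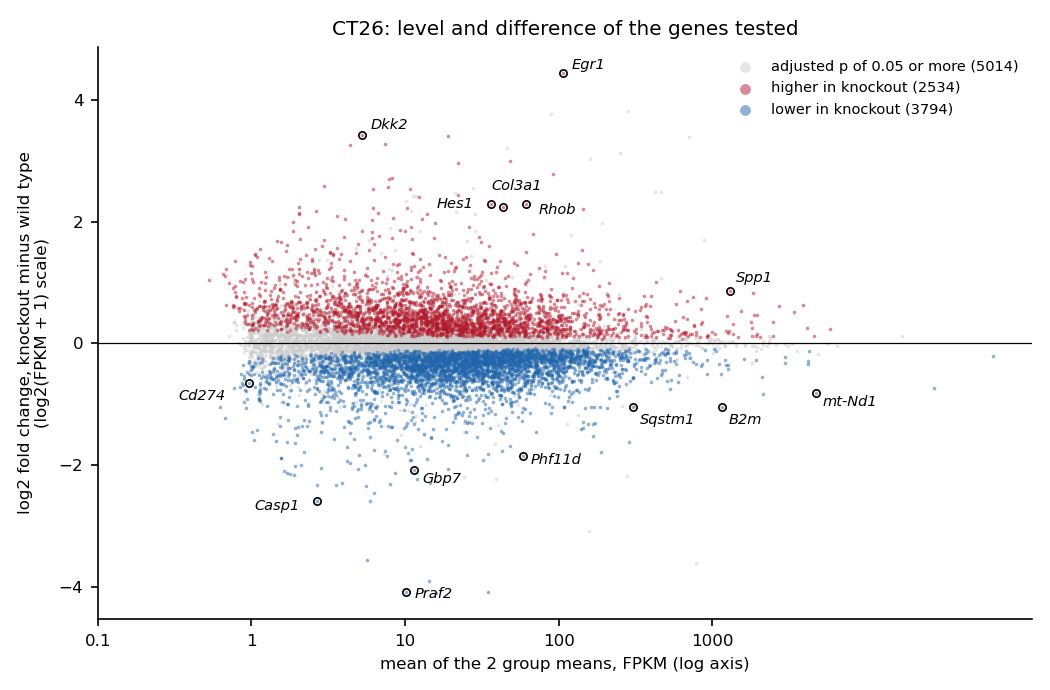
Each point is 1 of the 11342 genes, placed by the mean of its group means in FPKM (log axis) and its log2 fold change, knockout minus wild type, with genes past the threshold in red (2534 higher) and blue (3794 lower) and the rest in grey. Most points lie within 0.5 of 0, and the circled genes are among those the text describes.

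More of the abundant genes passed the threshold, and their values varied less between replicates. Of genes below 5 FPKM, 42.3% passed, against 65.9% of those at 100.0 FPKM or more, where the median SE of the log2 fold change was 0.04 and not 0.11. The median absolute log2 fold change went the other way, from 0.27 to 0.21.

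Cd274 (gene ID ENSMUSG00000016496), whose deposited locus is chromosome 19, 29367455 to 29388095 of mm10, was low in all libraries. It had 1.504, 1.49, 1.43 and 1.23 FPKM in the wild type libraries and 0.548, 0.445, 0.569 and 0.543 FPKM in the knockout libraries. The groups did not overlap, as in 51.5% of all genes tested. The log2 fold change was -0.66 (SE 0.08, limma adjusted p = 1.42e-04), with a 95% interval of -0.84 to -0.48. It was -1.27 with a pseudocount of 0.1 and -0.21 with one of 5. The exact two-sided permutation p over the 70 assignments of the 8 values was 0.0286, the smallest they can give. The 20 Mb window that holds the gene was also lower by its median. In it 36 of 66 genes fell and 17 rose, with a median log2 fold change of -0.28. After the median of each window was subtracted Cd274 stood at -0.38 (limma adjusted p = 0.00503). This window was uneven, with quartiles of -0.61 and 0.21, between windows with medians of 0.11 and -0.46. Its median need not describe the genes next to Cd274. A CRISPR cut changes the sequence of a gene and need not lower its RNA, so this level does not by itself test the knockout. The authors' deposited table gives Cd274 a q-value of 2.14e-04.

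Whole chromosomes differed between the groups. On chromosome 1, 471 of 658 genes (71.6%) fell and 30 rose, and the median log2 fold change was -0.46. On chromosome 12, 328 of 416 genes (78.8%) rose and 7 fell, at a median of 0.54. Both shifts ran over the whole length, with window medians from -0.53 to -0.39 on chromosome 1 and from 0.48 to 0.58 on chromosome 12. Genes of chromosome 8 (324 of 561 higher, median 0.24) and of chromosome 14 (233 of 385 higher, median 0.27) were shifted up by less. Chromosomes 5, 18 and 19 were divided: on chromosome 18 the genes between 20 and 40 Mb had a median of 0.24 and those between 60 and 80 Mb a median of -0.51. These are descriptions, since genes of a chromosome share the same 8 libraries. DNA copy number was not measured here, and its part in these shifts was not tested.

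**Figure D2:**
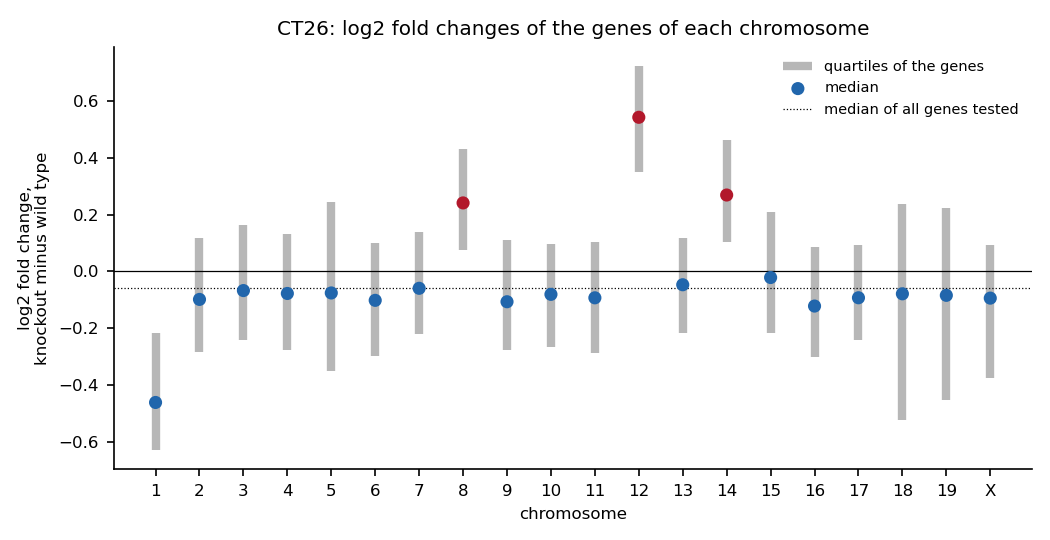
Points give the median log2 fold change, knockout minus wild type, of the genes of each chromosome with at least 30 genes tested, and the grey bars run from the first to the third quartile of those genes. The quartiles of chromosome 1 (-0.63 to -0.22) and of chromosome 12 (0.35 to 0.72) lie on opposite sides of 0, and the dotted line is the median of all genes tested.

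After each library was centred on the median deviation of every 20 Mb window, 2547 genes (22.5%) were higher and 2539 (22.4%) lower, so that 50.1% of the changed genes were higher. Values after this centring are given below where they end a call, turn a direction or move a log2 fold change by over 1.5 times. Means are given with their SD (n = 4 per group). Chromosome 1 holds the genes of the mitochondrial chaperone Hspd1 and of the nucleolar protein Ncl, and chromosome 12 those of Fos, Hif1a, Rhob and Twist1, so position bears on several of the lists below.

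A short stretch of the X chromosome, between 7 and 8.3 Mb and picked out after its values were seen, fell almost as a block. Of 25 genes tested there 24 fell, 13 of them by at least 2-fold, and 0 rose, with a median of -1.001. Genes beside it fell as well: of all 45 genes of the first 20 Mb 38 fell, and of 36 genes between 20 and 40 Mb 22 did, 7 of them by at least 2-fold. The member with the greatest fall was Praf2, which encodes a membrane protein of the endoplasmic reticulum. It had 20.8, 19.6, 19.9 and 19.9 FPKM in the wild type libraries and 0.184, 0.258, 0.0505 and 0.514 FPKM in the knockout libraries, so that it was nearly absent from the knockout. Wdr45, an autophagy gene that lies in the same deposited locus (chromosome X, 7714333 to 7731064) and may share reads with it, had 36.2, 37.7, 44.4 and 40.8 FPKM in the wild type libraries and 12.4, 9.82, 8.03 and 11.8 FPKM in the knockout libraries, a log2 fold change of -1.84 that was -0.95 after window centring. The other falls were closer to the median of the stretch. Clcn5, a chloride and proton exchanger of endosomes, went from 15.8 ± 1.64 to 4.21 ± 1.07 FPKM (log2 fold change -1.71, and -0.82 after window centring), and Plp2, a membrane protein, from 241 ± 6.19 to 95.7 ± 2.54 FPKM (log2 fold change -1.32, and -0.43 after window centring). Both were picked out after their values were seen. Tfe3, a transcription factor that drives lysosome genes, had 44.5, 39.0, 37.0 and 33.4 FPKM in the wild type libraries and 17.3, 21.96, 16.6 and 14.96 FPKM in the knockout libraries. The groups did not overlap, as in 51.5% of all genes tested, and the log2 fold change was -1.08 (SE 0.12, limma adjusted p = 1.18e-04). Ebp, a sterol isomerase of cholesterol synthesis, went from 147 ± 9.04 to 70.7 ± 7.80 FPKM. Window centring took Tfe3 to -0.20 (limma adjusted p = 0.226) and Ebp to -0.16 (0.106).

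Among the largest rises were regulators of cell shape and of signalling. Rhob, a small GTPase that is itself an early response gene, had 19.2, 19.9, 20.7 and 20.9 FPKM in the wild type libraries and 100.5, 102, 103 and 106 FPKM in the knockout libraries, 5.09 times the wild type mean. Hes1, a transcriptional repressor induced by Notch, had 10.5, 15.3, 8.46 and 13.1 FPKM in the wild type libraries and 66.5, 53.7, 66.8 and 55.6 FPKM in the knockout libraries. The log2 fold changes of Rhob and Hes1 were 2.29 (SE 0.04, limma adjusted p = 0.00000002301) and 2.28 (SE 0.16, limma adjusted p = 9.87e-06). The large rises and falls were named among genes past the threshold whose groups did not overlap, so neither trait is further support. Groups did not overlap in 51.5% of all genes tested. Cdc42bpg, a kinase that acts below Cdc42, went from 3.01 ± 0.781 to 17.5 ± 1.85 FPKM, and Rab3b, a vesicle GTPase, from 3.47 ± 0.384 to 15.2 ± 0.772 FPKM. Trib2, a pseudokinase, went from 5.73 ± 0.612 to 25.4 ± 3.16 FPKM, and Fst, the secreted activin inhibitor follistatin, from 4.47 ± 0.433 to 21.4 ± 1.06 FPKM.

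Further large rises were the following. Col3a1, a fibrillar collagen of fibroblasts, had 14.5, 15.8, 13.7 and 14.2 FPKM in the wild type libraries and 77.0, 65.6, 82.6 and 66.5 FPKM in the knockout libraries. Krt20, a keratin of differentiated intestinal epithelium, had 1.79, 1.85, 1.78 and 1.69 FPKM in the wild type libraries and 9.72, 11.4, 9.94 and 10.5 FPKM in the knockout libraries. Lck, a Src family kinase best known from T cells, had 0.551, 1.29, 1.02 and 1.07 FPKM in the wild type libraries and 7.25, 6.80, 8.23 and 6.22 FPKM in the knockout libraries, while the T cell marker Cd3e was listed at 0 in every library. Cytip, a scaffold protein of leukocytes, went from 10.4 ± 0.765 to 42.0 ± 1.57 FPKM, and Anxa8, an annexin, from 1.51 ± 0.0844 to 10.8 ± 0.783 FPKM. Groups without overlap were a condition for naming these genes as well. The summed level of 12 epithelial markers was 35.6 to 37.0 FPKM in the wild type against 42.2 to 48.6 FPKM in the knockout, and that of 10 fibroblast and pericyte markers 286 to 290 against 374 to 412 FPKM. The first sum rose mainly through Krt20, as Krt18 was not higher, and the second through Col3a1 and Col1a2, while Col1a1 (-0.70, limma adjusted p = 7.39e-05) and Pdgfrb (-0.24, 0.0106) of the same list fell and Lum and Thy1 were at 0 throughout. The part of other cell types in these rises was not tested. Limma adjusted p ran from 0.0000001684 for Cytip to 5.28e-06 for Lck.

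Apart from genes given elsewhere (Praf2, Casp1 and the interferon, MHC and serpin genes Ifi44l, H2-T24, Serpinb9b, Gbp7, Phf11d and Cxcl10), the large falls included the following. Syne4, a nuclear envelope linker, had 7.02, 3.63, 8.70 and 9.15 FPKM in the wild type libraries and 1.32, 1.13, 0.129 and 0.151 FPKM in the knockout libraries. Adam8, a metalloprotease, had 16.9, 25.3, 22.7 and 16.8 FPKM in the wild type libraries and 3.30, 3.69, 3.20 and 3.93 FPKM in the knockout libraries, and Myo1g, a myosin of haematopoietic cells, 12.7, 15.96, 14.5 and 14.7 FPKM in the wild type libraries and 2.10, 2.87, 1.26 and 4.66 FPKM in the knockout libraries. The spread of Syne4 and Myo1g within a group was wide. Further falls were Nnmt, nicotinamide N-methyltransferase, from 7.57 ± 0.990 to 1.21 ± 0.415 FPKM, Dpp7, a lysosomal dipeptidase, from 17.8 ± 1.53 to 3.98 ± 0.399 FPKM, and Tspan11, a tetraspanin, from 12.4 ± 1.84 to 2.74 ± 0.512 FPKM. The purine receptor gene P2rx3 went from 7.29 ± 1.85 to 1.15 ± 0.266 FPKM, the aminopeptidase gene Xpnpep2 from 8.66 ± 2.07 to 1.27 ± 0.235 FPKM, the casein gene Csn3 from 31.1 ± 2.12 to 6.68 ± 0.879 FPKM and Bpifb4 from 9.37 ± 0.590 to 1.62 ± 0.432 FPKM. Groups without overlap were a condition for naming the genes of this paragraph, and 51.5% of all genes tested met it.

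Some genes were close to absent in one group. In 13 genes the mean was at most 0.25 FPKM in the wild type and at least 2 FPKM in the knockout, and in 14 the reverse held. Dkk2, a secreted modulator of Wnt signalling, had 0.0908, 0.0379, 0.0265 and 0.148 FPKM in the wild type libraries and 9.94, 10.3, 10.5 and 11.2 FPKM in the knockout libraries. Dsg4, a desmosomal cadherin, had 0, 0, 0.0142 and 0.0593 FPKM in the wild type libraries and 9.07, 8.79, 8.56 and 8.46 FPKM in the knockout libraries. Both were at or near 0 in every wild type library. The others included Ptgis, prostacyclin synthase, from 0.0557 ± 0.0645 to 4.03 ± 0.688 FPKM, Marcks, a membrane-bound actin regulator, from 0.130 ± 0.0535 to 3.92 ± 0.366 FPKM, Cmbl, a hydrolase, from 0.120 ± 0.0710 to 3.94 ± 0.317 FPKM, Ramp3, a receptor accessory protein, from 0.147 ± 0.0663 to 3.56 ± 0.466 FPKM, the forkhead factor Foxq1, from 0.223 ± 0.0487 to 2.87 ± 0.0335 FPKM, and the lymphocyte cytokine Il7, from 0.0948 ± 0.0489 to 2.02 ± 0.314 FPKM.

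In the other direction Casp1, the protease of the inflammasome, had 5.25, 4.83, 5.39 and 5.66 FPKM in the wild type libraries and 0.0330, 0.0737, 0 and 0.0410 FPKM in the knockout libraries. Pex5l, a peroxisomal receptor relative, had 4.08, 3.31, 3.36 and 2.92 FPKM in the wild type libraries and was listed at 0 in all 4 knockout libraries. Sox13, a transcription factor, went from 3.56 ± 0.480 to 0.0199 ± 0.0246 FPKM, and Pla1a, a phospholipase, from 3.75 ± 0.248 to 0.0599 ± 0.0426 FPKM. Parvg, an adaptor at integrin contacts, went from 3.99 ± 1.02 to 0.227 ± 0.151 FPKM, and Spats2l from 3.05 ± 1.19 to 0.0673 ± 0.0785 FPKM. Spats2l varied most of these within a group, from 1.77 to 4.64 FPKM in the wild type. These genes were chosen by their levels, so no test is given for them.

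Large differences in level came from abundant genes with small fold changes. S100a6, a calcium-binding protein, had 3169, 3066, 2898 and 3124 FPKM in the wild type libraries and 4639.8, 4691, 4659 and 4909.9 FPKM in the knockout libraries. Spp1, which encodes osteopontin, went from 925 ± 13.6 to 1685 ± 46.8 FPKM, Tpt1, a translation-linked growth protein, from 2162 ± 95.9 to 3299 ± 142 FPKM (log2 fold change 0.61, and 0.31 after window centring), and the elongation factor Eef1a1 from 5399 ± 218 to 6349 ± 189.7 FPKM (log2 fold change 0.23, and 0.35 after window centring). The mitochondrial gene mt-Nd1 had 6619.99, 6302, 5936 and 5478 FPKM in the wild type libraries and 3639, 3718, 3645 and 2820.1 FPKM in the knockout libraries. The ferritin chains Fth1 and Ftl1 fell, from 4731 ± 181 to 3735 ± 93.9 FPKM and from 2502 ± 99.9 to 1693 ± 34.7 FPKM, as did Actb, cytoplasmic actin, from 4665 ± 317 to 3793 ± 67.3 FPKM. Window centring took Actb to -0.03 (limma adjusted p = 0.555).

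Other abundant genes barely differed. Rps12, a ribosomal protein, had 2351, 2314, 2248 and 2527 FPKM in the wild type libraries and 2347, 2399.99, 2252 and 2451 FPKM in the knockout libraries. The RNA-binding protein Hnrnpk went from 1119 ± 25.8 to 1119 ± 37.7 FPKM and the cytochrome oxidase subunit Cox6b1 from 1429.9 ± 34.6 to 1429 ± 37.6 FPKM. They were chosen because the whole 95% interval of the log2 fold change lay within 0.1 of 0, as it did in 84 of 11342 genes. The intervals were -0.09 to 0.10 for Rps12, -0.07 to 0.07 for Hnrnpk and -0.07 to 0.06 for Cox6b1. Scaling moved the log2 fold changes by small amounts. With upper-quartile scaling Rps12 stood at 0.10 (limma adjusted p = 0.0448), Hnrnpk at 0.09 (0.0118) and Cox6b1 at 0.09 (0.0148). After window centring Rps12 stood at -0.11 (0.0487), Hnrnpk at 0.10 (0.0124) and Cox6b1 at 0.05 (0.168).

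**Figure D3:**
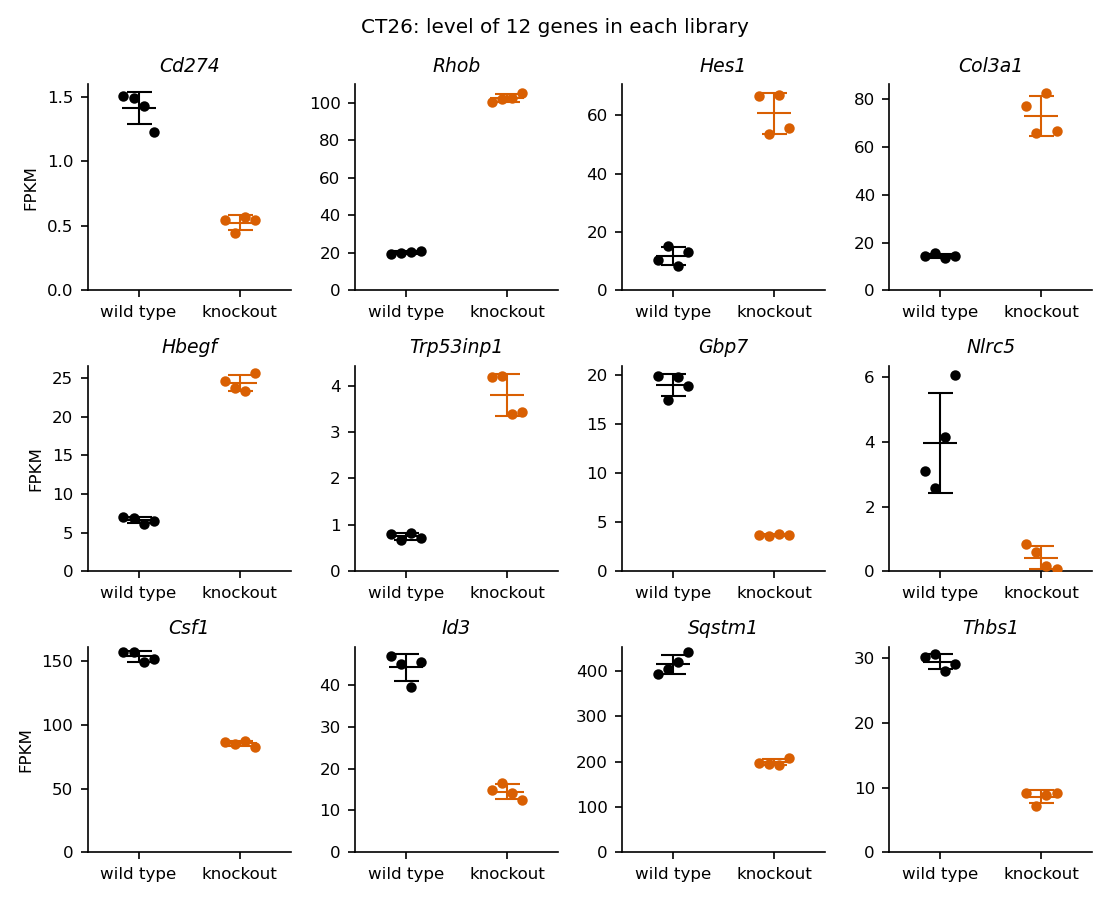
FPKM (linear axis from 0) of 12 genes in each of the 4 wild type (black) and 4 knockout (orange) libraries, with bars at the mean and whiskers of 1 SD. The 12 genes were picked from those the text describes, with their values known. In all 12 panels the groups do not overlap, as in 51.5% of all genes tested. Nlrc5 shows the widest spread within a group relative to its mean.

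Immediate early genes encode transcription factors that growth signals switch on within minutes, without new protein synthesis. Of 30 tested, 25 rose and 1 fell, with a median log2 fold change of 0.80 against -0.06 over all genes. The list counts here and below stand against 22.3% of all genes tested higher and 33.5% lower on the deposited scale. Counts after window centring stand against 22.5% higher and 22.4% lower. With upper-quartile scaling 3316 of all 11342 genes were higher and 2840 lower, and with quantile normalization 2888 and 3271. Fos, a subunit of the AP-1 factor, had 0.393, 0.778, 0.656 and 0.476 FPKM in the wild type libraries and 12.1, 12.9, 14.4 and 17.9 FPKM in the knockout libraries, and Jun, its partner, 15.3, 13.2, 14.2 and 14.6 FPKM in the wild type libraries and 44.7, 46.2, 47.3 and 53.3 FPKM in the knockout libraries. Egr1 rose most, at 4.44. The only member that fell was Nab1, a corepressor of Egr1 on chromosome 1, which went from 63.7 ± 4.22 to 40.002 ± 4.76 FPKM, a log2 fold change of -0.66 (SE 0.09, limma adjusted p = 3.01e-04) that was -0.28 after window centring (0.0312).

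Genes that ERK signalling induces, many of which restrain the pathway in turn, rose in 16 and fell in 5 of 24 cases, at a median of 0.31. The phosphatases Dusp6, specific for ERK, and Dusp1, which acts on several MAP kinases, had 1.80 and 1.31 as log2 fold changes. Dusp1 had 11.9, 10.6, 9.68 and 11.8 FPKM in the wild type libraries and 27.2, 26.6, 27.5 and 33.8 FPKM in the knockout libraries. Spry4, a Sprouty inhibitor of receptor signalling, went from 10.7 ± 0.442 to 23.2 ± 0.961 FPKM, and Etv1, an ETS factor, from 1.13 ± 0.328 to 3.95 ± 0.269 FPKM (log2 fold change 1.23, and 0.64 after window centring). The groups did not overlap in Dusp1, Dusp6, Spry4 or Etv1, as in 51.5% of all genes tested. These genes were named among members past the threshold, so this is no further support.

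Ligands that start such signals moved too. Of 23 tested EGF family, receptor and growth factor genes 9 rose and 7 fell, at a median of 0.07, with 11 higher and 4 lower after window centring. Hbegf and Ereg, ligands of the EGF receptor, rose: Hbegf had 7.01, 6.92, 6.15 and 6.51 FPKM in the wild type libraries and 24.6, 23.6, 23.4 and 25.6 FPKM in the knockout libraries, and Ereg 8.43, 8.64, 8.18 and 8.45 FPKM in the wild type libraries and 25.1, 24.1, 24.3 and 26.001 FPKM in the knockout libraries. Nrg1, a ligand of the related ERBB3 and ERBB4 receptors, went from 6.21 ± 0.937 to 13.0 ± 1.28 FPKM, and the FGF receptor Fgfr1 from 13.2 ± 2.40 to 36.6 ± 2.64 FPKM. Met, the receptor of hepatocyte growth factor, fell, from 33.8 ± 1.95 to 24.6 ± 1.43 FPKM (log2 fold change -0.44, and -0.25 after window centring). Another EGF receptor ligand, Tgfa, had 2.74, 2.64, 2.63 and 2.54 FPKM in the wild type libraries and 1.36, 1.61, 2.58 and 1.30 FPKM in the knockout libraries. The groups overlap through knockout replicate 3. The limma adjusted p of 0.0230 rose to 0.0964 after window centring and to 0.0523 to 0.0626 without any 1 of 4 libraries, wild type replicate 1 or knockout replicate 1, 2 or 4.

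Interferon-induced genes were mostly lower in the knockout. Of 69 tested effector genes, which carry out the antiviral response, 59 fell and 5 rose, at a median of -0.78. The fall was at least 2-fold in 23. Gbp7, a guanylate-binding protein, had 19.9, 17.5, 19.9 and 18.9 FPKM in the wild type libraries and 3.75, 3.62, 3.80 and 3.73 FPKM in the knockout libraries. Ifi44l went from 10.9 ± 1.45 to 0.9752 ± 0.266 FPKM, and Phf11d from 91.7 ± 5.84 to 24.8 ± 2.44 FPKM. The members that rose included Ifitm1, a restriction factor of virus entry at the cell surface, which had 80.9, 87.4, 90.3 and 96.8 FPKM in the wild type libraries and 217, 222, 210.4 and 236 FPKM in the knockout libraries. Its log2 fold change was 1.31 (SE 0.06, limma adjusted p = 8.79e-07). In the effector list, 54 fell and 7 rose after window centring.

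Of 37 sensors and signalling components, 23 fell and 7 rose, at a median of -0.31. Zbp1, a sensor of Z-form nucleic acids, had 56.9, 49.7, 55.8 and 56.9 FPKM in the wild type libraries and 13.6, 14.1, 13.1 and 18.7 FPKM in the knockout libraries. Tlr3, the receptor for double-stranded RNA, went from 10.2 ± 0.690 to 3.67 ± 0.527 FPKM, against the upward shift of its chromosome, 8.

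MHC class I molecules show peptides to CD8 T cells. Of 27 tested genes for their chains, loading and immunoproteasome, 22 fell and 1 rose, at a median of -0.67. Nlrc5, the transactivator of class I genes, had 3.09, 2.56, 4.13 and 6.05 FPKM in the wild type libraries and 0.857, 0.583, 0.160 and 0.0890 FPKM in the knockout libraries. The nonclassical chain H2-T24 went from 10.03 ± 0.697 to 1.17 ± 0.185 FPKM, and B2m, the common light chain, from 1563 ± 51.9 to 757 ± 31.1 FPKM. H2 genes resemble each other and can share reads, so their single values are less certain. The member that rose was Calr, the chaperone calreticulin, from 524 ± 26.9 to 846 ± 28.8 FPKM (log2 fold change 0.69, and 0.45 after window centring), which is also counted among endoplasmic reticulum chaperones below.

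MHC class II genes were mostly too low to test, with 5 of 14 tested. Cd74, the invariant chain, fell from 1.79 ± 0.318 to 0.463 ± 0.143 FPKM (log2 fold change -0.93, and -0.44 after window centring), and Rfxank, a subunit of the promoter-binding complex, rose from 1.81 ± 0.233 to 4.79 ± 0.575 FPKM.

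Of 14 other ligands of T and NK cells 8 fell (57.1%) and 3 rose (21.4%), against 33.5% and 22.3% of all genes. After window centring 6 were lower and 3 higher. Cd276, a checkpoint relative of PD-L1 also known as B7-H3, had 13.4, 17.0, 14.2 and 18.5 FPKM in the wild type libraries and 6.24, 4.83, 4.52 and 8.82 FPKM in the knockout libraries. Lgals9, galectin 9, went from 124 ± 4.05 to 78.7 ± 2.38 FPKM, and Clec2d, a ligand of the inhibitory NK receptor NKR-P1, from 4.25 ± 0.772 to 2.10 ± 0.215 FPKM. Cd80, which costimulates T cells and binds PD-L1 on the same membrane, rose, from 5.62 ± 0.426 to 9.53 ± 0.507 FPKM. Serpinb9, which blocks granzyme B of killer cells, had 7.05, 6.79, 6.98 and 7.03 FPKM in the wild type libraries and 1.43, 1.27, 1.49 and 1.63 FPKM in the knockout libraries, and its relative Serpinb9b went from 14.02 ± 0.836 to 2.06 ± 0.567 FPKM. The pair are close relatives and may share reads.

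Of 25 tested genes for enzymes and chaperones that set the stability and trafficking of the PD-L1 protein, 13 fell and 3 rose, at a median of -0.20, which was 0.0018 after window centring, with 3 higher and 7 lower. None differed by 2-fold.

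Inflammasome, pyroptosis and necroptosis genes fell in 5 and rose in 1 of 8, with 1 higher and 3 lower after window centring, where the median went from -0.23 to -0.01. Casp1 was close to absent from the knockout, as given above. Gsdmd, the pore protein that caspase 1 cleaves, fell by much less, from 53.8 ± 1.44 to 42.8 ± 1.01 FPKM. Mlkl, the pore protein of necroptosis, rose from 44.7 ± 1.58 to 56.6 ± 2.22 FPKM, and after window centring its limma adjusted p was 0.0688.

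Chemokines and cytokines were divided, with 7 higher and 3 lower of 15. The 3 that fell were Cxcl10 and Ccl5, which draw T cells and are induced by interferon, and Csf1, the macrophage growth factor. Cxcl10 had 62.9, 43.9, 46.5 and 50.2 FPKM in the wild type libraries and 12.5, 8.33, 13.4 and 18.1 FPKM in the knockout libraries. Ccl5 had 22.3, 20.3, 21.1 and 26.3 FPKM in the wild type libraries and 6.84, 9.15, 6.89 and 5.37 FPKM in the knockout libraries, and Csf1 157, 157, 149 and 152 FPKM in the wild type libraries and 86.4, 85.1, 87.6 and 82.8 FPKM in the knockout libraries. In all 3 the groups were apart, as in 51.5% of all genes tested. The 3 were named because they passed the threshold, so this adds no support. Among those that rose, Il11, a cytokine of the interleukin 6 family, went from 1.32 ± 0.129 to 4.18 ± 0.336 FPKM. NF-kappaB subunits and feedback genes fell in 10 and rose in 5 of 25, a share of falls near the background, with 6 higher and 7 lower after window centring. Bcl3, a nuclear cofactor of NF-kappaB, went from 2.68 ± 1.67 to 0.711 ± 0.126 FPKM (limma adjusted p = 0.0159), and Tnfaip2, a target gene, rose from 85.0 ± 4.97 to 160.3 ± 13.7 FPKM (log2 fold change 0.91, and 0.42 after window centring).

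p53 stops the cell cycle through its target genes. Of 30 genes in the list, 21 rose and 3 fell, at a median of 0.48. Trp53inp1, a cofactor of p53 in cell death and autophagy, had 0.803, 0.669, 0.820 and 0.722 FPKM in the wild type libraries and 4.18, 4.21, 3.39 and 3.43 FPKM in the knockout libraries. Ccng1, cyclin G1, had 30.1, 28.9, 29.6 and 33.6 FPKM in the wild type libraries and 76.1, 76.9, 73.7 and 76.6 FPKM in the knockout libraries. Trp53, the gene of p53 itself, was among the 3 that fell, from 108 ± 1.64 to 92.5 ± 2.78 FPKM (log2 fold change -0.22, and -0.13 after window centring).

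**Figure D4:**
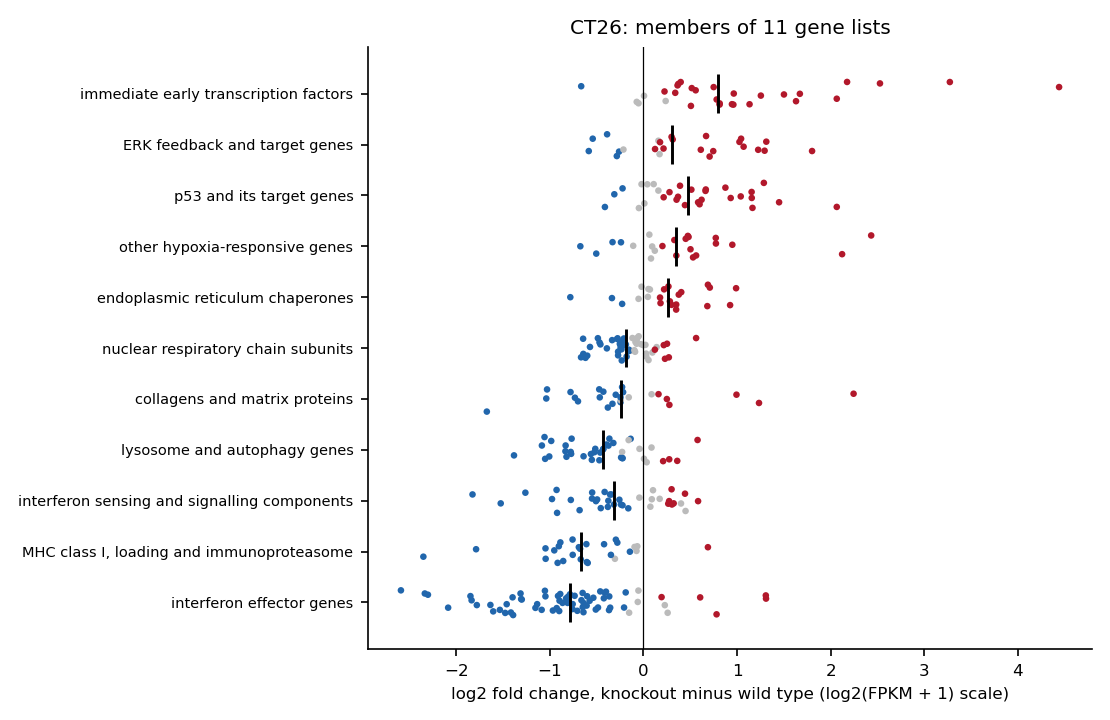
Each point is a tested member of 1 of 11 gene lists, placed by its log2 fold change, knockout minus wild type, in red or blue where it passed the threshold as higher or lower and in grey otherwise. Black bars mark the list medians, from 0.80 for immediate early transcription factors to -0.78 for interferon effector genes. Height within a row carries no meaning.

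Cell cycle lists were divided. G1 cyclins, kinases and inhibitors rose in 8 and fell in 9 of 24, which became 9 higher and 6 lower under upper-quartile scaling. Ccne1, cyclin E1, which starts replication with its kinase, fell from 56.6 ± 3.71 to 39.4 ± 2.09 FPKM. Cdk4, the partner of D cyclins, is an abundant transcript in the deposited table and fell from 1419 ± 38.6 to 1113 ± 20.3 FPKM. Of 36 DNA replication genes 15 fell (41.7%) and 7 rose (19.4%), against 33.5% and 22.3% of all genes. The median was -0.08, and 0.01 after upper-quartile scaling. Mcm6, a helicase subunit encoded on chromosome 1, went from 102 ± 1.44 to 61.6 ± 3.78 FPKM (log2 fold change -0.72, and -0.28 after window centring), and Ung, uracil DNA glycosylase, from 21.96 ± 1.48 to 11.9 ± 1.90 FPKM. Rrm2, a subunit of ribonucleotide reductase encoded on chromosome 12, went from 130.4 ± 6.24 to 207 ± 5.73 FPKM, a log2 fold change of 0.67 that was 0.08 after window centring. Window centring left 10 falls and 2 rises.

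Mitosis genes rose in 9 and fell in 9 of 38 (23.7% each) on the deposited scale, against 22.3% and 33.5% of all genes. After window centring 9 were higher and 5 lower. The spindle motor Kif11 went from 29.2 ± 0.627 to 18.8 ± 0.180 FPKM (log2 fold change -0.61, and -0.33 after window centring), the kinase Nek2 from 33.6 ± 1.02 to 21.9 ± 0.9749 FPKM (log2 fold change -0.60, and -0.15 after window centring) and the centromere histone Cenpa from 111 ± 15.6 to 171 ± 5.94 FPKM (log2 fold change 0.63, and 0.26 after window centring). Of replication-dependent histones, whose messages lack a poly(A) tail, 6 of 37 were tested, 4 rose and 0 fell. Hist1h1c, a linker histone, went from 5.998 ± 0.799 to 15.7 ± 1.75 FPKM, and Hist1h4i from 1.23 ± 0.365 to 5.25 ± 1.14 FPKM. Histone genes of a cluster resemble each other, so these values are less certain.

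The TGF-beta, activin and BMP pathway had 16 falls (48.5%) and 11 rises (33.3%) among 33 genes, against 33.5% and 22.3% of all genes. Id1 and Id3, inhibitors of differentiation factors and direct targets of BMP signals, fell. Id3 had 46.8, 44.9, 39.4 and 45.3 FPKM in the wild type libraries and 14.8, 16.6, 14.2 and 12.4 FPKM in the knockout libraries, and Id1 64.1, 73.3, 58.0 and 68.8 FPKM in the wild type libraries and 31.2, 32.9, 31.2 and 33.7 FPKM in the knockout libraries. Smad2, which carries the TGF-beta and activin signal to the nucleus, went from 53.6 ± 2.21 to 23.5 ± 1.71 FPKM (log2 fold change -1.16, and -0.67 after window centring). Secreted inhibitors rose: Fst as given above, and Grem1, which traps BMPs, from 13.9 ± 0.619 to 26.3 ± 0.290 FPKM. The ligand Bmp2 had 0.0791, 0.0792, 0.0277 and 0.0579 FPKM in the wild type libraries and 1.17, 1.38, 1.42 and 1.15 FPKM in the knockout libraries, a rise from near 0. The median of the list was -0.12, and 8 higher and 9 lower were left after window centring and 13 higher and 10 lower with upper-quartile scaling.

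Of 17 Wnt ligands, inhibitors and readouts 9 fell (52.9%) and 3 rose (17.6%), against 33.5% and 22.3% of all genes. The median was -0.24, with 3 higher and 6 lower after window centring. Dkk2 rose, as given above. The receptor Fzd7 fell from 8.296 ± 0.304 to 4.31 ± 0.180 FPKM (log2 fold change -0.81, and -0.43 after window centring) and Axin1, a scaffold of the beta-catenin destruction complex and itself a negative regulator, from 79.1 ± 5.99 to 51.6 ± 3.73 FPKM. Of 12 Notch pathway genes 5 rose and 2 fell. Hes1 led these, and the receptor Notch1 had 4.91, 2.72, 5.33 and 4.09 FPKM in the wild type libraries and 10.4, 5.28, 6.78 and 6.76 FPKM in the knockout libraries. The Notch1 groups overlap in a narrow band, and its limma adjusted p of 0.0308 was 0.0541 to 0.0658 without any 1 of 5 libraries, wild type replicate 2 or 4 or knockout replicate 1, 3 or 4.

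YAP and TEAD targets rose in 10 and fell in 6 of 21, with 9 higher and 3 lower after window centring. Cyr61 and Ctgf, matrix-associated signalling proteins, are the best known of these. Cyr61 had 80.5, 73.5, 67.7 and 67.4 FPKM in the wild type libraries and 202, 198, 214 and 225 FPKM in the knockout libraries, and Ctgf went from 39.5 ± 1.99 to 66.0 ± 3.38 FPKM. Amotl2, which holds YAP back, fell from 37.98 ± 1.26 to 24.97 ± 1.32 FPKM. Of 12 neuropilin, semaphorin and plexin genes 3 were higher and 4 lower, both shares near the background of all genes tested. After window centring 4 were higher and 3 lower. Nrp1, a coreceptor for semaphorins and VEGF, had 1.43, 1.39, 1.47 and 1.55 FPKM in the wild type libraries and 15.5, 14.9, 15.3 and 14.6 FPKM in the knockout libraries. Its relative Nrp2 fell from 38.6 ± 0.426 to 19.2 ± 0.826 FPKM (log2 fold change -0.97, and -0.54 after window centring), as did the plexin Plxnd1, from 29.4 ± 2.61 to 12.6 ± 2.51 FPKM.

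Matrix genes fell more often than they rose. Among collagens and matrix proteins 16 of 25 fell and 6 rose, at a median of -0.24. Thbs1, thrombospondin 1, had 30.2, 30.7, 28.02 and 29.1 FPKM in the wild type libraries and 9.11, 7.10, 8.95 and 9.26 FPKM in the knockout libraries. Its relative Thbs2 went the other way, with 12.2, 11.8, 12.4 and 12.7 FPKM in the wild type libraries and 29.2, 29.9, 30.04 and 31.7 FPKM in the knockout libraries. The collagen genes were also divided: Col7a1, of anchoring fibrils, fell from 10.8 ± 0.636 to 4.83 ± 1.06 FPKM, Col18a1, of basement membranes, from 10.2 ± 1.11 to 4.53 ± 0.879 FPKM, and Col1a1 from 21.1 ± 1.19 to 12.6 ± 1.25 FPKM, while Col1a2, the other chain of collagen I, rose from 244 ± 1.46 to 296 ± 8.62 FPKM (log2 fold change 0.28, and 0.47 after window centring). The level per length of Col1a2 was the higher of these chains in both groups.

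Among proteases, inhibitors and crosslinkers 15 of 26 fell (57.7%) and 5 rose (19.2%), against 33.5% and 22.3% of all genes. Loxl4, a lysyl oxidase that crosslinks collagen, went from 45.0 ± 1.56 to 19.3 ± 0.289 FPKM (log2 fold change -1.18, and -0.72 after window centring). Integrins and laminins fell in 11 and rose in 3 of 21 (52.4% and 14.3%), which read 6 and 4 after window centring. Itgb7, an integrin chain of lymphocytes, had 203, 227, 226 and 216 FPKM in the wild type libraries and 110.5, 103, 103 and 103 FPKM in the knockout libraries. Of the laminin chains, Lamb2 fell from 35.0 ± 2.46 to 13.9 ± 2.184 FPKM, and Lamb1, encoded on chromosome 12, rose from 38.7 ± 0.868 to 63.7 ± 3.62 FPKM, with a limma adjusted p of 0.0639 after window centring.

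Junction genes had no common direction, 5 higher and 4 lower of 13, with 6 higher and 3 lower after window centring. Krt20 and Dsg4 rose, as given above. Krt7, a keratin of simple epithelia, fell from 2.63 ± 0.368 to 0.430 ± 0.243 FPKM, and Jup, plakoglobin, from 7.35 ± 1.24 to 3.02 ± 0.999 FPKM. Of mesenchymal genes and factors 7 rose and 5 fell among 18, with 10 higher and 1 lower after window centring. Snai2 and Twist1, transcription factors of the mesenchymal state, had 8.67, 7.71, 9.77 and 9.23 FPKM in the wild type libraries and 20.1, 19.1, 19.9 and 22.8 FPKM in the knockout libraries for Snai2 and 25.2, 23.04, 22.5 and 24.98 FPKM in the wild type libraries and 54.1, 53.9, 53.8 and 57.5 FPKM in the knockout libraries for Twist1. The log2 fold change of Twist1 was 1.16, and 0.58 after window centring. Vim, vimentin, was among the most abundant transcripts and rose from 3802 ± 158 to 4531 ± 33.1 FPKM. Cdh2, N-cadherin, fell from 29.6 ± 0.635 to 18.1 ± 0.692 FPKM (log2 fold change -0.68, and -0.21 after window centring). Cytoskeletal targets of SRF rose in 6 and fell in 11 of 23, with 6 higher and 7 lower after window centring and 9 higher and 8 lower with upper-quartile scaling, among them Vcl, vinculin, from 43.7 ± 3.87 to 69.7 ± 3.63 FPKM (log2 fold change 0.66, and 0.41 after window centring), and Fhl2, a LIM domain cofactor, from 83.6 ± 5.22 to 47.3 ± 3.27 FPKM (log2 fold change -0.81, and -0.43 after window centring).

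Hypoxia and glycolysis genes rose more often than they fell. Of 22 glycolysis genes 12 rose and 2 fell, and of 23 other hypoxia-responsive genes 14 rose and 4 fell, at medians of 0.11 and 0.35. Car9, a carbonic anhydrase and standard hypoxia marker, had 3.499, 3.97, 6.12 and 4.68 FPKM in the wild type libraries and 15.99, 26.7, 24.7 and 25.98 FPKM in the knockout libraries. Ankrd37, a target of HIF, had 4.27, 5.29, 7.04 and 8.31 FPKM in the wild type libraries and 30.1, 42.3, 46.3 and 32.2 FPKM in the knockout libraries. Slc16a3, the lactate exporter, went from 27.9 ± 2.26 to 53.8 ± 1.12 FPKM, Pgk1, a glycolytic kinase, from 174 ± 6.67 to 243 ± 8.67 FPKM, and Bnip3l, a mitophagy receptor, from 18.7 ± 2.22 to 37.0 ± 3.17 FPKM. Car12, another carbonic anhydrase, fell from 4.02 ± 0.245 to 2.16 ± 0.383 FPKM. Hif1a, the oxygen-regulated subunit of HIF, lies on chromosome 12 and went from 29.2 ± 1.84 to 50.7 ± 2.21 FPKM. Its log2 fold change was 0.77, and 0.22 after window centring (limma adjusted p = 0.0124).

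Nuclear genes of the respiratory chain were more often lower than higher. Of 54 tested 31 fell and 6 rose, at a median of -0.18, and 19 and 9 did after window centring. Ndufs1, a subunit of complex I, went from 90.3 ± 3.21 to 56.6 ± 3.66 FPKM (log2 fold change -0.67, and -0.23 after window centring), and Atp5a1, of ATP synthase, from 645 ± 20.8 to 426 ± 13.4 FPKM (log2 fold change -0.60, and -0.12 after window centring). Cox8a, of cytochrome oxidase, rose from 678 ± 26.3 to 1003 ± 19.3 FPKM. Of 7 mitochondrially encoded genes 3 passed as lower and 0 as higher. These were mt-Nd1 and mt-Nd2, the latter from 2723 ± 260.05 to 1532 ± 190 FPKM, and mt-Co1, from 3316 ± 287 to 2652 ± 344 FPKM, whose limma adjusted p of 0.0241 was 0.0811 after upper-quartile scaling and 0.0584 to 0.0625 without wild type replicate 2 or 1.

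Lysosome and autophagy genes fell in 29 and rose in 4 of 39 cases, at a median of -0.43. Sqstm1, the autophagy receptor p62, had 394, 403, 419 and 441 FPKM in the wild type libraries and 198, 196, 193 and 209 FPKM in the knockout libraries. Neu1, lysosomal sialidase, had 11.9, 11.1, 10.1 and 16.6 FPKM in the wild type libraries and 4.38, 4.43, 4.38 and 3.24 FPKM in the knockout libraries. Fnip1 and Fnip2, partners of folliculin in the control of mTORC1 and of TFE3, had means that went from 8.18 ± 0.295 to 3.64 ± 0.110 FPKM for Fnip1 and from 8.50 ± 0.821 to 3.73 ± 0.320 FPKM for Fnip2. Map1lc3a, which encodes an LC3 protein of the autophagosome membrane, went from 8.31 ± 0.724 to 3.502 ± 0.353 FPKM. Tfe3 itself belongs to the list and to the X chromosome stretch. Mitf, its relative, rose from 1.57 ± 0.357 to 2.83 ± 0.375 FPKM. Upper-quartile scaling left 27 falls and 5 rises, window centring 25 and 3. Whether the lower level of Tfe3 has a part in the list was not tested.

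Chaperones of the endoplasmic reticulum rose in 15 and fell in 3 of 23, at a median of 0.27. Calr, given above, had 551, 543, 506 and 497 FPKM in the wild type libraries and 876, 858, 839.9 and 809 FPKM in the knockout libraries. Pdia6, a disulphide isomerase encoded on chromosome 12, went from 143 ± 3.91 to 285 ± 6.76 FPKM (log2 fold change 0.99, and 0.43 after window centring), and Sdf2l1, a cofactor of the chaperone BiP, from 13.5 ± 0.796 to 26.5 ± 1.76 FPKM. Atf6, a membrane-bound stress factor encoded on chromosome 1, fell from 28.5 ± 0.301 to 16.2 ± 0.430 FPKM (log2 fold change -0.78, and -0.32 after window centring). Genes of the ATF4 and amino acid response fell in 16 and rose in 8 of 35, with 5 higher and 18 lower after window centring. Psph, the last enzyme of serine synthesis, had 267, 293, 253 and 303 FPKM in the wild type libraries and 132, 142, 125 and 133 FPKM in the knockout libraries. Ddit3, which encodes CHOP, went from 58.7 ± 2.60 to 30.9 ± 1.399 FPKM, and Trib3, its target, from 67.3 ± 3.47 to 39.2 ± 2.91 FPKM. Vldlr, a lipoprotein receptor, rose from 46.0 ± 3.71 to 74.0 ± 1.18 FPKM.

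Of 27 NRF2 and glutathione genes 15 fell and 6 rose, at a median of -0.28. Gclc, the catalytic subunit for the first step of glutathione synthesis, went from 25.5 ± 1.21 to 17.2 ± 0.686 FPKM, and Ftl1 belongs to this list too. Heat shock genes were divided, 8 lower (38.1%) and 6 higher (28.6%) of 21, against 33.5% and 22.3% of all genes. After window centring 4 were higher and 5 lower. Hspd1 went from 613 ± 11.1 to 399 ± 7.01 FPKM (log2 fold change -0.62, and -0.24 after window centring), and the small chaperone Cryab from 28.1 ± 3.33 to 15.8 ± 2.01 FPKM. Lipid genes were split as well, with 10 of 24 cholesterol genes lower and 7 higher, and 11 of 22 fatty acid genes lower and 5 higher. The balance turned after window centring, with 8 higher and 6 lower for cholesterol and 9 higher and 7 lower for fatty acid genes. Insig1, which retains the sterol sensor, rose from 24.7 ± 1.31 to 40.2 ± 3.05 FPKM (log2 fold change 0.68, and 0.31 after window centring), as did the sterol reductase Tm7sf2, from 22.1 ± 1.91 to 39.3 ± 0.942 FPKM, and Lpin1, a phosphatidate phosphatase, from 7.30 ± 0.710 to 16.6 ± 1.47 FPKM (log2 fold change 1.09, and 0.52 after window centring).

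Ribosomal protein genes depended on the scale. Of 80 tested 26 rose and 12 fell as deposited, 29 and 20 with quantile normalization, 50 and 7 with upper-quartile scaling, and 47 and 3 after window centring. Rps29 and Rps7, both encoded on chromosome 12, rose from 2807 ± 136 to 4017 ± 161 FPKM for Rps29 and from 679 ± 42.7 to 1131 ± 34.4 FPKM for Rps7, with log2 fold changes of -0.04 and 0.15 after window centring. Rps19 fell from 1343 ± 68.6 to 945 ± 22.1 FPKM. Assembly factors of the ribosome fell in 19 and rose in 5 of 35, and after window centring in 7 and 4. Ncl, nucleolin, went from 711 ± 9.16 to 498 ± 5.66 FPKM and Tcof1, treacle, which serves the transcription of ribosomal RNA genes, from 59.1 ± 2.13 to 34.6 ± 1.04 FPKM (log2 fold change -0.76, and -0.27 after window centring). After window centring Ncl stood at -0.05 (limma adjusted p = 0.169).

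BCL2 family genes, which set the threshold of cell death, rose in 4 and fell in 6 of 14 (28.6% and 42.9%). Of all genes 22.3% rose and 33.5% fell. The BCL2 family counts became 6 higher and 3 lower after window centring. Proteasome subunits rose in 7 and fell in 14 of 31 (22.6% and 45.2%), a share of rises near the background. Of these subunits 2 were higher and 6 lower after window centring, and 9 higher and 6 lower with upper-quartile scaling. Of 6 complement and acute phase genes tested, 1 rose and 0 fell, and 3 higher and 0 lower were called after window centring.

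**Figure D5:**
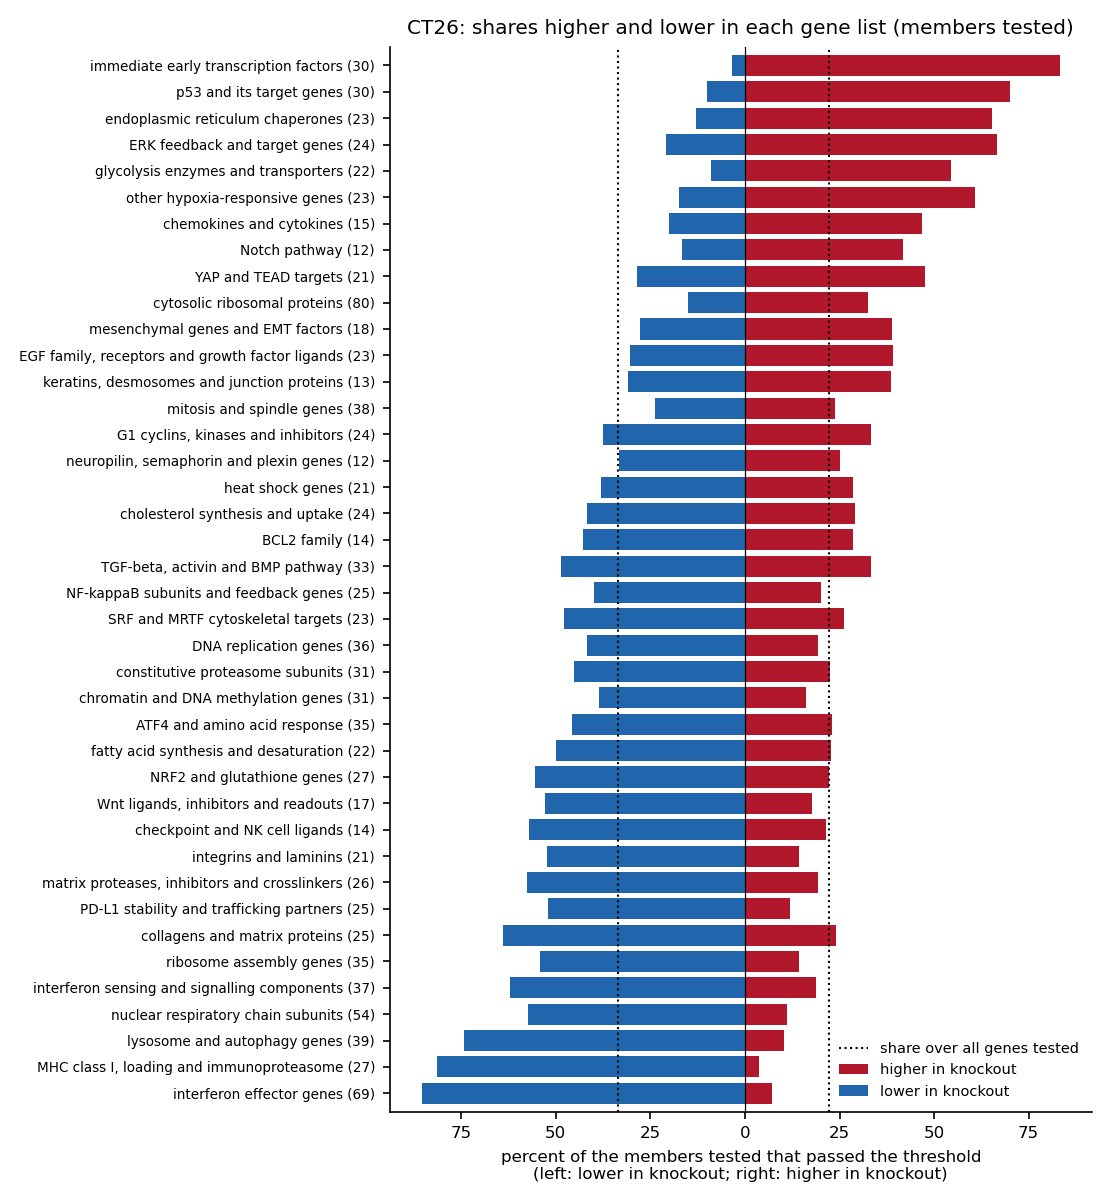
Bars give, for each list with at least 12 members tested, the percent of those members past the threshold as higher (red, to the right) or lower (blue, to the left) in the knockout, and dotted lines the shares over all 11342 genes. Immediate early factors have the greatest share of rises (83.3%) and interferon effectors of falls (85.5%).

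Set against the authors' deposited table, 5161 of the genes tested had a q-value below 0.05 there, 4958 of these (96.1%) also passed here, and all 4958 had the same direction. A further 1370 genes passed here and not there. Both tests rest on the same 8 libraries, so the shared calls and directions are no independent support.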

How the data were processed

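Total RNA of 8 CT26 libraries was compared. Per the submitters' processing notes, bcl2fastq 2.18, STAR 2.5.4a, Cufflinks 2.2.1 and Cuffdiff were used, and mm10 is named; the sources used here give no annotation and no strand. The authors deposited FPKM per library and Cuffdiff p-values and q-values. Deposited loci are bundles, and 55.3% of the genes tested share one with another gene, so overlapping genes may share reads. A block of 210 chromosome 8 genes of status HIDATA, listed at 0 in every library, was left out.

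From these, log2(FPKM + 1) was fitted in limma 3.58.1 (R 4.3.3, trend on the mean level), which was checked on simulated data. Tables and plots used Python 3.11.15, numpy 2.4.6, pandas 2.3.3 and matplotlib 3.10.9. Window centring subtracted, in each library, the median deviation of each 20 Mb window with at least 10 genes. Alternatives were pseudocounts of 0.1 and 5, no filter, a minimum of 5 FPKM, upper-quartile and quantile scaling, no trend, a replicate block and leaving out each library.

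The genes and lists were chosen with earlier results of these data known. Genes are named by rule: Cd274; the 25 largest rises and falls among named genes without overlap whose higher mean is at least 5 FPKM; up to 6 genes of each list with the largest changes and up to 3 against its direction; genes near absent from 1 group; the 15 largest differences in FPKM each way; and the 15 most abundant stable genes. A promoter motif search was not run, and no sequences are used here. Some results are not reported here.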

Additional observations from a re-analysis of the deposited data

Results flagged for a closer look

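In each group of 4 libraries, the library farthest from the others was compared with them for every gene named here, and picked out where its gap to the nearest, as a share of the whole range, was above Dixon's 95% critical value. Chance alone picks out about 1 in 20 groups. Of 376 groups 24 were picked out, 11 of them in knockout replicate 4.

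mt-Nd1 stood at 2820.1 FPKM in knockout replicate 4, against 3638.6 to 3717.6 in the others of its group. In knockout replicate 4, Dusp1 had 33.813 FPKM, and the other 3 had 26.645 to 27.525. The level of Mlkl in knockout replicate 4 was 59.885 FPKM, where the rest had 55.175 to 55.815. Loxl4 stood at 19.729 FPKM in knockout replicate 4, against 19.11 to 19.189 in the others of its group. In knockout replicate 4, Krt18 had 34.774 FPKM, and the other 3 had 30.39 to 30.645. The level of Twist1 in knockout replicate 4 was 57.518 FPKM, where the rest had 53.777 to 54.1. Trib3 stood at 43.531 FPKM in knockout replicate 4, against 37.184 to 38.083 in the others of its group. In knockout replicate 4, Gclc had 18.172 FPKM, and the other 3 had 16.71 to 16.907. The level of Neu1 in knockout replicate 4 was 3.2376 FPKM, where the rest had 4.3788 to 4.4323. Fnip1 stood at 3.4748 FPKM in knockout replicate 4, against 3.6921 to 3.7018 in the others of its group. In knockout replicate 4, Rps19 had 977.77 FPKM, and the other 3 had 930.22 to 936.71.

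In wild type replicate 2, Clcn5 had 18.273 FPKM, and the other 3 had 14.88 to 15.078. The level of Xpnpep2 in wild type replicate 1 was 11.732 FPKM, where the rest had 7.3943 to 8.0411. Bpifb4 stood at 2.2706 FPKM in knockout replicate 3, against 1.3845 to 1.4444 in the others of its group. In knockout replicate 2, Tspan11 had 1.9817 FPKM, and the other 3 had 2.8998 to 3.0744. The level of Etv1 in knockout replicate 3 was 4.3522 FPKM, where the rest had 3.7761 to 3.8409. Zbp1 stood at 49.657 FPKM in wild type replicate 2, against 55.773 to 56.911 in the others of its group. In wild type replicate 2, Ifi44l had 8.7316 FPKM, and the other 3 had 11.275 to 11.78. The level of Thbs1 in knockout replicate 2 was 7.1008 FPKM, where the rest had 8.9515 to 9.2627. Itgb7 stood at 110.46 FPKM in knockout replicate 1, against 102.79 to 103.45 in the others of its group. In wild type replicate 3, Pdia6 had 137.03 FPKM, and the other 3 had 144.19 to 145.59.

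The relative depth of knockout replicate 1 was 2.497, against 0.927 to 1.117 in the other libraries of its group. The first principal component of wild type replicate 3 was -23.296, against -27.345 to -26.881 in the other libraries of its group. The second principal component of wild type replicate 4 was 33.003, against -13.219 to -9.21 in the other libraries of its group. No explanation of these values was tested.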

How the results depend on the processing

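The 6328 changed genes became 5086 to 6350 over the alternatives with all libraries, and 5773 to 6008 when 1 library was left out. The 2-fold counts moved most. They were 342 higher with a pseudocount of 0.1 and 81 higher and 91 lower (172 in all) with a pseudocount of 5, 141 higher at a minimum of 5 FPKM and 140 lower after window centring. Without 1 library, 210 to 228 were higher and 215 to 226 lower by 2-fold (429 to 452 in all), and at the threshold alone 2275 to 2480 were higher and 3498 to 3652 lower.

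Replicate numbers recur in both groups, but deviations of same-numbered libraries correlated at only 0.0273 to 0.0779, so the numbers were not taken to pair them, although each library correlated best with its own number. With the replicate block 6032 genes changed. Of the 183 genes named, 179 passed the threshold, and 168 had the same call and direction under all 17 alternatives that kept them. Of 94 list counts, 30 left 1.5 times their value after window centring, 19 after upper-quartile scaling, 12 after quantile normalization and 0 to 10 under the others. Directions turned for Rps29 (-0.036, limma adjusted p = 0.503), Rps12 (-0.11, 0.0487) and Kdm6a (0.11, 0.143) after window centring, and for Cox6b1 (0.092, 0.0148) after upper-quartile scaling. Window centring also ended the calls of Tfe3, Ebp, Actb, Mlkl, Lamb1, Ncl and Tgfa, and with no filter on low values those of mt-Co1, Tgfa and Notch1 were lost (limma adjusted p = 0.0657 to 0.0767). Cd274 stood at -0.70 to -0.63 without 1 library, -1.27 and -0.21 with pseudocounts of 0.1 and 5 and -0.38 after window centring; it was not tested at the minimum of 5 FPKM and passed under the other alternatives (limma adjusted p = 2.13e-05 to 0.00503). Depth per library is known only relative to the others, so counting error of single genes is not given.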

Other observations

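Aldehyde dehydrogenases, which oxidise reactive aldehydes, were divided, with 5 higher and 5 lower of 11 tested, or 5 higher and 3 lower after window centring. Aldh7a1, which acts in lysine breakdown, had 3.32, 3.01, 2.92 and 3.74 FPKM in the wild type libraries and 18.5, 21.0, 22.2 and 23.7 FPKM in the knockout libraries, a log2 fold change of 2.40 (SE 0.09, limma adjusted p = 0.0000004381). Aldh3a1, an enzyme of the cornea and of carcinomas, went from 5.07 ± 0.376 to 12.7 ± 0.438 FPKM, and Aldh3b1 fell from 4.51 ± 0.373 to 1.82 ± 0.242 FPKM. The groups of these 3 genes did not overlap, as in 51.5% of all genes tested. Being past the threshold was a condition for naming them, so this adds no support.

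Of 7 tested imprinted genes and abundant noncoding RNAs, 2 rose and 2 fell, with 3 higher and 1 lower after window centring. Neat1, the RNA scaffold of paraspeckles, had 17.6, 19.9, 22.4 and 17.4 FPKM in the wild type libraries and 46.2, 41.8, 48.0 and 36.5 FPKM in the knockout libraries. Snhg1, a host of small nucleolar RNAs, had 97.7, 104, 95.9 and 104 FPKM in the wild type libraries and 227, 213, 238 and 254 FPKM in the knockout libraries. Impact, an imprinted gene whose product restrains the kinase GCN2, fell from 40.1 ± 0.731 to 16.7 ± 0.753 FPKM (log2 fold change -1.22, and -0.75 after window centring). Neat1 and Snhg1 lie in deposited loci shared with other genes, so some of their reads may belong to those.

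Chromatin and DNA methylation genes rose in 5 and fell in 12 (16.1% and 38.7%) of 31, against 22.3% and 33.5% of all genes, with 4 higher and 5 lower after window centring, and at a median of -0.05 that was 0.02 after upper-quartile scaling. Hdac9, a class IIa histone deacetylase encoded on chromosome 12, rose from 2.04 ± 0.399 to 6.73 ± 0.322 FPKM (log2 fold change 1.35, and 0.77 after window centring). Kdm6a, an X-linked histone demethylase, fell from 7.97 ± 0.548 to 4.23 ± 0.263 FPKM, a log2 fold change of -0.78 that was 0.11 after window centring (limma adjusted p = 0.143).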
